A study of Arabidopsis thaliana with 27 samples.

Results

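The group described here consists of 64 genes of *Arabidopsis thaliana* that are nuclear in the platform annotation. Their transcript signals were at least 2-fold above the control at 8 h and 24 h of heat and again at 8 h and 24 h of recovery. The 64 were chosen by their measured levels on the arrays. The probe sets of 8 of them cannot tell a nuclear transcript from one of the mitochondrion. A probe set had to have 1 nuclear gene in the platform annotation and no place in the study's glycerolipid gene table, a mean log2 signal of at least 8 in its highest group, and control means at the 2 clock times that differed by less than 0.5. All 4 log2 differences between a treated group and the control of the same clock time had to be at least 1. Of 22746 probe sets in the table, 13415 carried 1 nuclear gene, 13361 of these lay outside the lipid table and 4582 met the limits on level and control difference. From these, 64 met the 4 limits on change, which was 1.4% of the eligible probe sets. The rule also sets aside 10 named genes, among them 6 small heat shock proteins, and 2 of these (AT1G54050 and AT1G67360) met every limit. A further limit to the 150 genes with the largest difference from the control at Recovery24hr removed none.

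Heat unfolds proteins, and plants answer by switching on chaperone genes through heat shock transcription factors, while many genes of growth and photosynthesis are turned down. Most heat-induced transcripts decay soon after the temperature falls. A smaller set persists for a day or longer, and this is known best for small heat shock proteins and for factors of thermotolerance memory. Recovery also calls on the mitochondria, which supply energy and are themselves damaged by heat, and on the nucleolus, where ribosomes are assembled.

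The plants were Col-0 wild type with no transgene, grown on agar at 22 °C in 16 h of light and 8 h of dark. Treated plants were moved to 38 °C at 18 days of age, 3 h after the onset of light, for one day and were then returned to 22 °C. Heat08hr, Heat24hr, Recovery08hr and Recovery24hr had 3 arrays each. Control08hr plants were kept at 22 °C and harvested at the clock time of Heat08hr and Recovery08hr (6 arrays, plants of 18 and 19 days), and Control24hr at that of the other 2 treated groups (9 arrays, plants of 18, 19 and 20 days). The label gives the tissue as leaf, whereas the methods name whole aerial parts. *RCA*, the Rubisco activase of green leaf cells, had a mean signal of 27134 at Control08hr and 33883 at Control24hr, and log2 differences of 0.03, -0.87, -0.85 and -0.88 at Heat08hr, Heat24hr, Recovery08hr and Recovery24hr. *SBPASE*, an enzyme of the Calvin cycle and the other named leaf marker, had -1.45, -3.75, -2.89 and -1.75. The guard cell factor FAMA had a mean signal of 242 and 215 in the controls. The root gene *PYK10* had 1117 and 975 in the controls, 175 at Heat08hr, 64 at Heat24hr, 134 at Recovery08hr and 1172 at Recovery24hr. The part of these marker differences in the members' values was not tested. Of the 8 leaf, 4 guard cell and 4 root markers listed, 2, 1 and 1 had a named probe set. All values are MAS5 signals of ATH1 arrays, in arbitrary units, and all differences are between means of log2 signals. In whole shoots a difference between cell numbers and a difference in RNA per cell cannot be told apart. The 08hr groups share 1 set of control arrays and the 24hr groups another.

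The median log2 difference of the 64 genes was 2.50 at Heat08hr, 2.82 at Heat24hr, 2.51 at Recovery08hr and 1.36 at Recovery24hr. Over all eligible probe sets the medians were 0.03, 0.03, 0.22 and 0.10. These differences chose the members and are given as a description, with no test. Each limit alone was met by 13.2%, 20.8%, 18.9% and 4.95% of the eligible probe sets in the same order, so late recovery was the narrowest gate. The largest of the 4 differences fell at Heat24hr in 35 members, at Recovery08hr in 22 and at Heat08hr in 7, and in no member at Recovery24hr. Among the 4582 eligible probe sets it fell at Heat24hr in 1143, at Recovery08hr in 1435, at Heat08hr in 857 and at Recovery24hr in 1147. At Recovery24hr the members' mean signals ran from 15.1 to 3669, with a median of 389. Of the 64, 14 had a mean signal of at least 1000 there and 8 lay under 100.

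**Figure D1:**
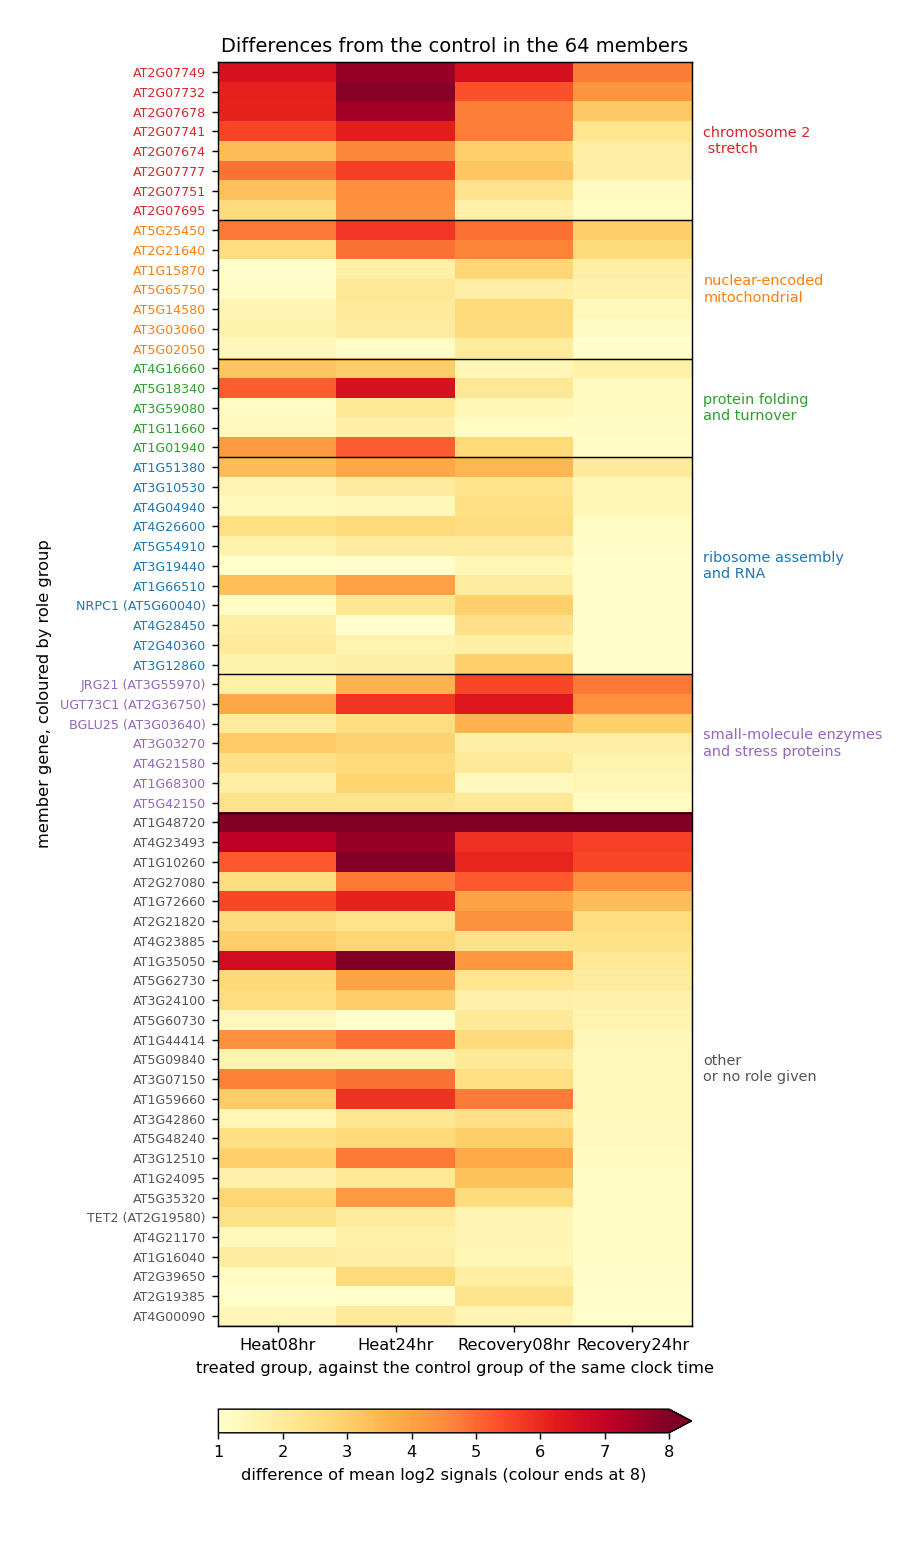
Each row is 1 of the 64 genes and each column a treated group; the colour gives the difference of mean log2 signals from the control of the same clock time, from 1 to 8 and above. Rows are ordered by role and then by the difference at Recovery24hr, and colours are palest at Recovery24hr, where the median was 1.36 against 2.82 at Heat24hr.

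The platform annotation and RefSeq give a symbol of their own to 5 of the 64 genes (*JRG21*, *UGT73C1*, *BGLU25*, *TET2* and *NRPC1*). Roles named for other loci are background knowledge of the locus, and the grouping by role was made after the members were known. The first group is 8 members of a stretch of chromosome 2, followed by 7 nuclear genes of mitochondrial proteins, 5 of protein folding and turnover, 11 of ribosome assembly and RNA work, and 7 of small-molecule enzymes and stress proteins. The remaining 26 have other roles or none that is given here.

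The 3 arrays of Recovery24hr were not alike in these genes, nor in the eligible probe sets raised there. Replicate 3 was the lowest of the 3 in 58 of 64 members (90.6%), compared with 43.2% of the eligible probe sets and 84.1% of those with a mean difference of at least 1 at Recovery24hr. The median difference of the members from the control mean was 1.83 on replicate 1, 1.46 on replicate 2 and 1.0 on replicate 3. Members at least 2-fold over the control mean numbered 64, 60 and 32 on these arrays. Of the 227 eligible probe sets raised at least 2-fold in the group mean, 220, 201 and 107 did so. Their medians on the 3 arrays were 1.66, 1.36 and 0.97. Each array holds 1 plant sample, so the sample and its handling on the array cannot be told apart. Without replicate 1, 43 members still met every limit and the median fell to 1.24. Without replicate 3, all 64 did and the median was 1.62. Leaving out the array that is lowest in most members raises their means, so nothing is read from the 64. At Recovery08hr replicate 3 was again the lowest array, in 51 of 64 members (79.7%), compared with 41.2% of the eligible probe sets and 77.5% of those with a mean difference of at least 1 there, and with a median of 2.26 against 2.73 and 2.64. All 64 members met the limits when that array was left out, and for the same reason nothing is read from this.

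**Figure D2:**
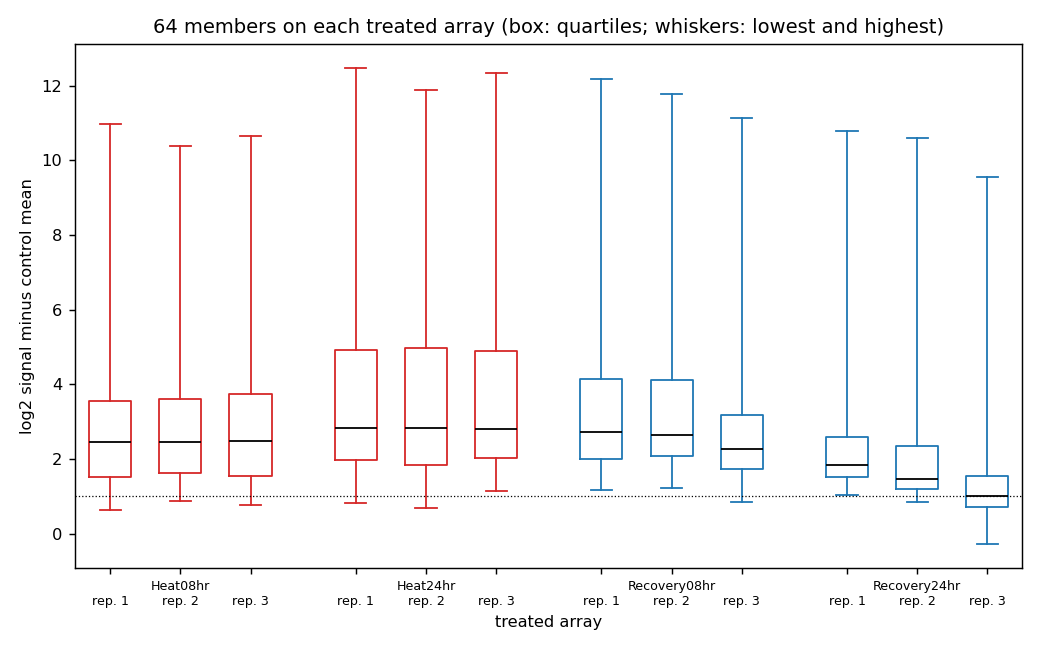
Each box shows the 64 members on 1 treated array, as the log2 signal minus the mean log2 signal of the control group; boxes are quartiles, whiskers the lowest and highest member, and the dotted line is 2-fold. The 6 heat arrays have medians of 2.44 to 2.84, and Recovery24hr replicate 3 has the lowest of all, 1.0.

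Arrays of treated plants seldom overlapped with the controls. Every array of Heat08hr, Heat24hr, Recovery08hr and Recovery24hr lay above every control array in 63, 63, 64 and 55 members. Among eligible probe sets that were not members this was so for 34.2%, 37.3%, 42.0% and 22.6%. Since the rule used the same arrays, nothing is read from this. The 9 members with an overlap at Recovery24hr were *JRG21*, AT1G35050, AT5G62730, AT1G44414, AT1G59660, AT3G12510, AT5G18340, AT2G07695 and AT3G03060.

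The largest difference in late recovery belonged to AT1G48720, a locus of chromosome 1 with no role given here. Its control signal was at the table's lowest value of 1 on 13 of 15 control arrays, and the others read 1.11 and 6.82. Signals were 2050.0, 1372 and 1646 at Heat08hr and 7094, 4671 and 6470.3 at Heat24hr. They were then 4756, 3564 and 2287 at Recovery08hr and 2183, 1929 and 926 at Recovery24hr. The transcript thus read at the floor of the scale in unheated plants, and no treated array came near a control array. No fold change is given, since the control level is a floor. Its probe set carries the suffix of those that match several transcripts (s_at), so the signal may come from more loci than this one.

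AT4G23493 was next, a small gene of no role given here. Its control arrays at the morning harvest ranged from 3.71 to 37.7 (median 5.83). Heat24hr arrays read 1662, 1796 and 1922 and Recovery24hr arrays 628, 463 and 301 (log2 differences 7.62 ± 0.78 and 5.61 ± 0.79). The controls are dim, and with 16 added to every signal the log2 differences were 6.03 and 4.06.

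AT1G10260, annotated as a pseudogene, had 2.26 to 38.3 (median 5.20) on the Control24hr arrays. Heat24hr signals were 2496, 1724 and 1133 and those of Recovery24hr were 524, 403 and 160.0, all above the controls (log2 differences 7.90 ± 0.83 and 5.51 ± 0.85). The other pseudogene, AT1G35050, behaved otherwise and had the steepest profile of the group. From 1.04 to 24.6 (median 2.43) in the controls it reached 6324, 6282 and 5181 at Heat24hr, and at Recovery24hr read 17.5, 19.7 and 10.1, within the range of the control arrays. Heat08hr arrays of this probe set read 512, 544 and 433, far below Heat24hr. Its log2 difference of 2.09 ± 0.96 at Recovery24hr rests on signals under 20, and both pseudogenes have s_at probe sets.

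Further members with high late values code for proteins of known families. AT1G72660 encodes a GTP-binding protein of the DRG family, conserved proteins that bind translating ribosomes. Its signals were 2065, 2119 and 1891 at Heat24hr and 645, 350.1 and 125 at Recovery24hr, against 9.95 to 61.3 (median 40.2) in the controls. AT2G27080, of a hydroxyproline-rich glycoprotein family related to late embryogenesis abundant proteins, had 445, 404 and 336 at Heat24hr and 659, 574 and 75.8 at Recovery24hr, against 4.60 to 49.9 (median 14.8). On replicates 1 and 2 of Recovery24hr it was above its Heat24hr signals and on replicate 3 far below them.

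**Figure D3:**
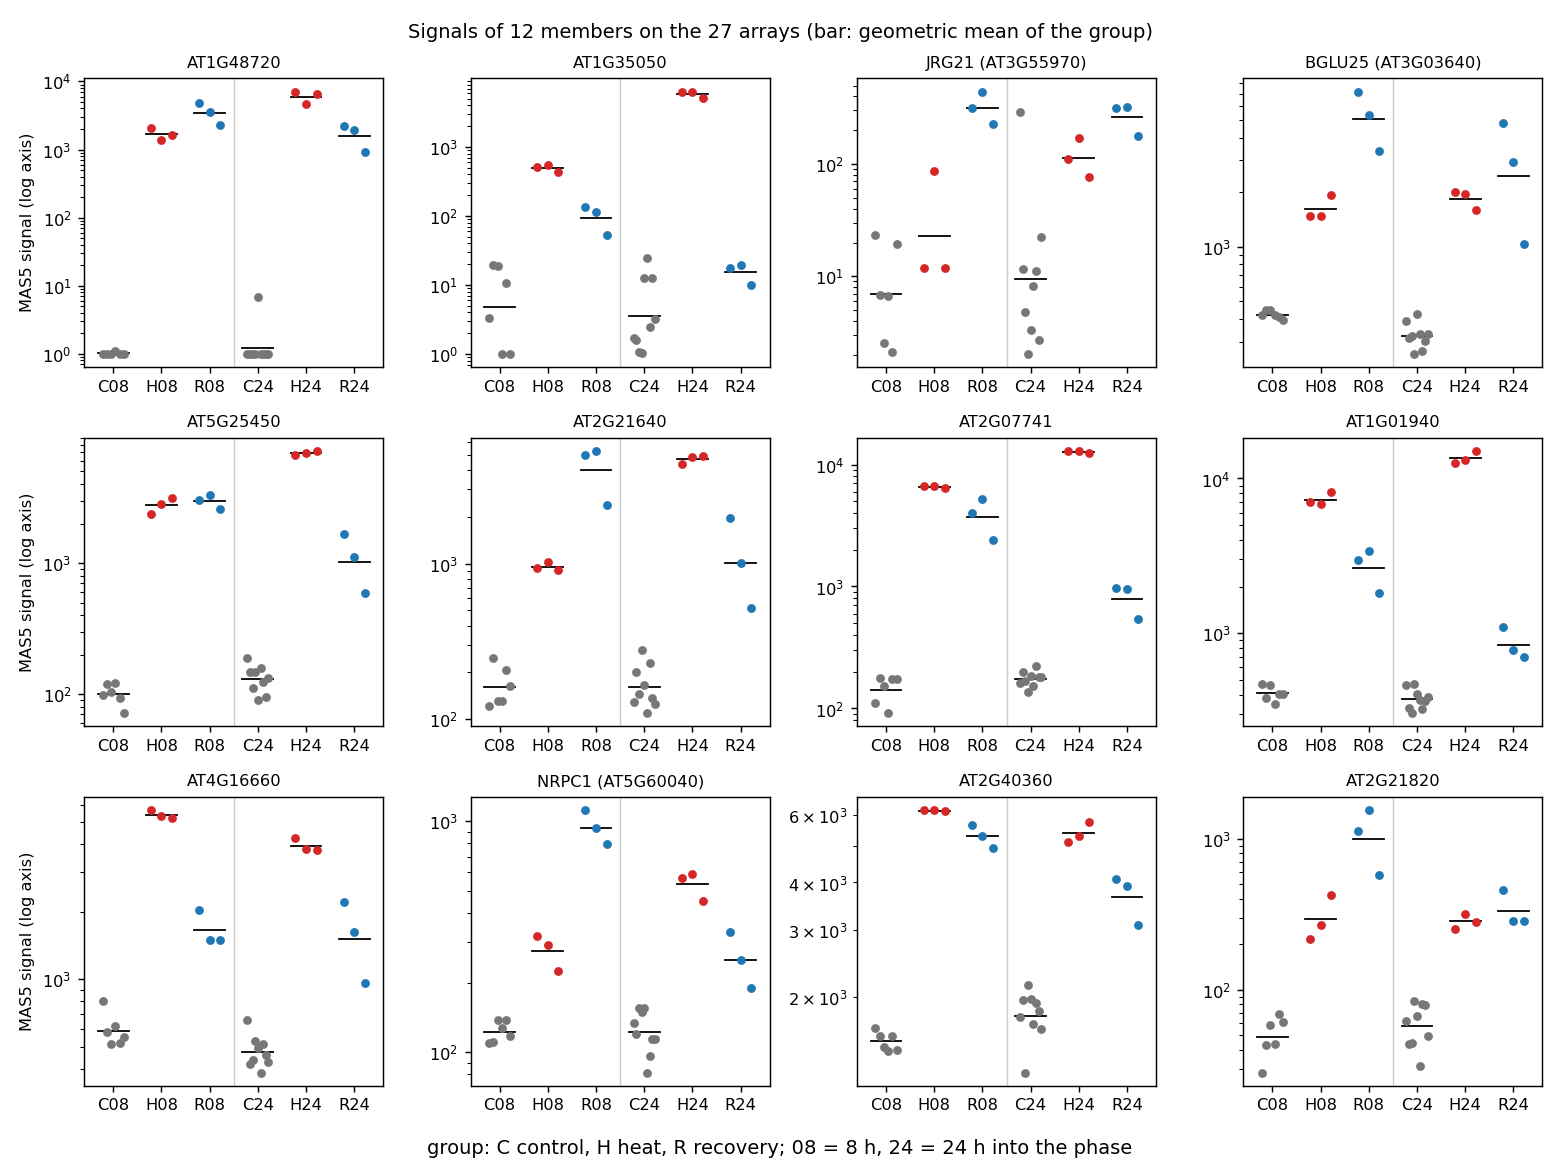
MAS5 signals (log axis) of 12 members on the 27 arrays, with C for control, H for heat and R for recovery, 08 and 24 for hours in the phase, and a bar at the geometric mean of each group. AT1G48720 stands at 1 in 13 control arrays and between 926 and 7094 in treated arrays; the Recovery24hr point farthest right in a panel is replicate 3.

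Enzymes that act on small molecules held some of the members whose recovery signals matched or exceeded those in heat. Most of their group was nevertheless lower in late recovery. Of the 7 small-molecule enzymes and stress proteins, 5 were at least 2-fold lower at Recovery24hr than at Heat24hr (3 after quantile normalization). This was so for 36 of the 64 members (39 after quantile normalization). The mean was higher at Recovery24hr than at Heat24hr in 2 of the 7. *JRG21* (AT3G55970) encodes a jasmonate-regulated oxygenase that hydroxylates jasmonic acid. Heat08hr arrays read 12, 86.2 and 11.8 and Recovery08hr arrays 314, 442 and 228, against 2.12 to 23.3 (median 6.81) in the controls. Only replicate 2 of Heat08hr was above the control range, so its place in the group at that time rests on 1 array. At the morning harvest the signals were 111, 169 and 76.6 in heat and 314, 322 and 177 in recovery, against 2.04 to 293 (median 8.17). One control array of 18 days thus reached the level of the recovery arrays. The log2 difference of 4.78 ± 1.22 at Recovery24hr was above the 3.57 ± 1.23 at Heat24hr. Both errors hold the spread of the same control arrays. Compared directly, Recovery24hr was above Heat24hr by 1.21 ± 0.39 (SE), which was not tested. No other member was 2-fold higher in late recovery than in late heat.

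*UGT73C1* (AT2G36750) encodes a glucosyltransferase that attaches sugar to cytokinins and other small compounds. It had 203, 149 and 197 at Heat08hr and 1243, 1312 and 642 at Recovery08hr, with controls of 5.14 to 61.4 (median 7.45). In the morning 609, 444 and 520.0 in heat was followed by 377, 199.8 and 108 in recovery. Its log2 differences were 3.87 ± 0.87 at Heat08hr, 5.77 ± 0.47 at Heat24hr, 6.35 ± 0.88 at Recovery08hr and 4.40 ± 0.53 at Recovery24hr, over dim controls. With 16 added to every signal they were 2.63, 4.34, 5.01 and 3.05. Every Recovery08hr array was above every Heat08hr array, and the differences at Recovery08hr and Heat24hr were within their errors.

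*BGLU25* (AT3G03640), a beta-glucosidase of the family that releases sugars from stored conjugates, was bright in unheated plants too (397 to 448 (median 420.1) at Control08hr). Heat08hr arrays read 1486, 1476 and 1939.7 and Recovery08hr arrays 7184, 5348 and 3365. Heat24hr arrays were at 2005, 1957 and 1604 and Recovery24hr arrays at 4789, 2953 and 1037, with replicates 1 and 2 above every Heat24hr array and replicate 3 below. The mean log2 difference between Recovery24hr and Heat24hr was 0.41 ± 0.57 (SE), smaller than its error, and it was -0.077 without Recovery24hr replicate 1.

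The remaining members of this kind stayed at a moderate fold. The universal stress proteins, small nucleotide-binding proteins of stress responses, were at 7.47-fold (AT3G03270) and 7.20-fold (AT1G68300) over control at Heat24hr and at 3.56-fold and 2.73-fold at Recovery24hr. AT4G21580, a zinc-binding oxidoreductase, had 3778, 4037 and 3289 at Heat24hr and 2193, 1564 and 1464 at Recovery24hr, against 541 to 738 (median 558). AT5G42150, of the glutathione S-transferase family, was near 4.92-fold at Heat08hr and 2.28-fold at Recovery24hr. Over the 7 genes the median log2 difference was 2.30 at Heat08hr, 2.85 at Heat24hr, 2.11 at Recovery08hr and 1.83 at Recovery24hr.

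A set of 7 members are nuclear genes of mitochondrial proteins. AT5G25450 encodes a small subunit of respiratory complex III, and it had the largest differences of them. Control24hr arrays read 90.3 to 190.0 (median 133), Heat24hr arrays 6660.0, 6961 and 7157 and Recovery24hr arrays 1652, 1112 and 589.9. The fold over control was 27.6 at Heat08hr, 53.4 at Heat24hr, 29.7 at Recovery08hr and 7.92 at Recovery24hr. AT2G21640 encodes a mitochondrial protein often used as a marker of oxidative stress. Its signals were 930.0, 1023 and 914 at Heat08hr and 5004, 5279 and 2386 at Recovery08hr, against 122 to 249 (median 147). At the morning harvest it read 4325, 4859 and 4893 in heat and 1953, 1011 and 520.0 in recovery. Early recovery was above early heat on every array of this gene, and late recovery below late heat.

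The mean at Recovery08hr was above that at Heat08hr in 7 of these genes (6 after median centring, where AT5G25450 turned), compared with 36 of the 64 members and 54.8% of the eligible probe sets. At Recovery24hr 2 of the 7 were at least 2-fold lower than at Heat24hr (4 after median centring), compared with 36 of the 64. AT5G65750, the E1 subunit of 2-oxoglutarate dehydrogenase in the citric acid cycle, had log2 differences of 1.15, 2.07, 1.75 and 1.62. The mitochondrial polynucleotide phosphorylase AT5G14580, which trims and degrades organelle RNA, had 1.52, 2.0, 2.70 and 1.34. AT3G03060, of the ATAD3 type of mitochondrial ATPase, stood at 2.63 at Recovery08hr and 1.17 at Recovery24hr. AT1G15870 and AT5G02050 belong to a family of mitochondrial matrix glycoproteins, and both had their largest difference at Recovery08hr (2.80 and 1.98). Recovery24hr and Heat24hr did not differ beyond the error for either, with 0.05 ± 0.37 and -0.15 ± 0.24 (SE).

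Another 8 members lie in the stretch of chromosome 2 that is known to hold a copy of the mitochondrial genome. Their probe sets cannot tell a transcript of the nuclear copy from one of the mitochondrion, and 6 of the 8 are s_at probe sets. In the locus order of RefSeq, 26 single-gene probe sets fell between the first and last of these members, of which 11 were eligible and 14 had all 4 differences at or above 1. The members were AT2G07749, AT2G07732, AT2G07678, AT2G07741, AT2G07674, AT2G07777, AT2G07751 and AT2G07695, and AT2G07674 and AT2G07751 are direct neighbours. AT2G07741 read 137 to 224 (median 182) on Control24hr arrays, 12791, 12907 and 12366 at Heat24hr and 967, 957 and 537 at Recovery24hr. AT2G07749 had only 2.14 to 5.45 (median 2.93) in the controls, 638, 569 and 692 at Heat24hr and 182, 97.9 and 34.2 at Recovery24hr, with a wide spread in recovery.

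All 8 had their largest difference at Heat24hr, compared with 35 of the 64 members and 1143 of 4582 eligible probe sets. All 8 were at least 2-fold lower at Recovery24hr than at Heat24hr, compared with 36 of the 64 members and 766 of the eligible. The median log2 differences of the 8 were 5.19, 5.91, 3.95 and 2.03 in the order Heat08hr, Heat24hr, Recovery08hr and Recovery24hr. All 26 single-gene probe sets of the stretch had medians of 3.11, 3.93, 2.35 and 1.10 in the same order. The 18 of them that were not members had 2.71, 3.36, 1.87 and 0.78. For 23 probe sets of 16 mitochondrion-encoded genes, such as *cox1* and *nad5* of the respiratory chain, the medians were 4.02, 5.45, 3.62 and 1.78. The 8 members were chosen for large differences and the 23 were not, so their medians are not like for like. Of these 23, 17 had all 4 differences at or above 1, and those 17 would have met every limit had they been nuclear. Without the 8 genes the medians of the remaining 56 members were 2.32, 2.65, 2.42 and 1.32, and 28 of the 56 were at least 2-fold lower at Recovery24hr than at Heat24hr.

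**Figure D4:**
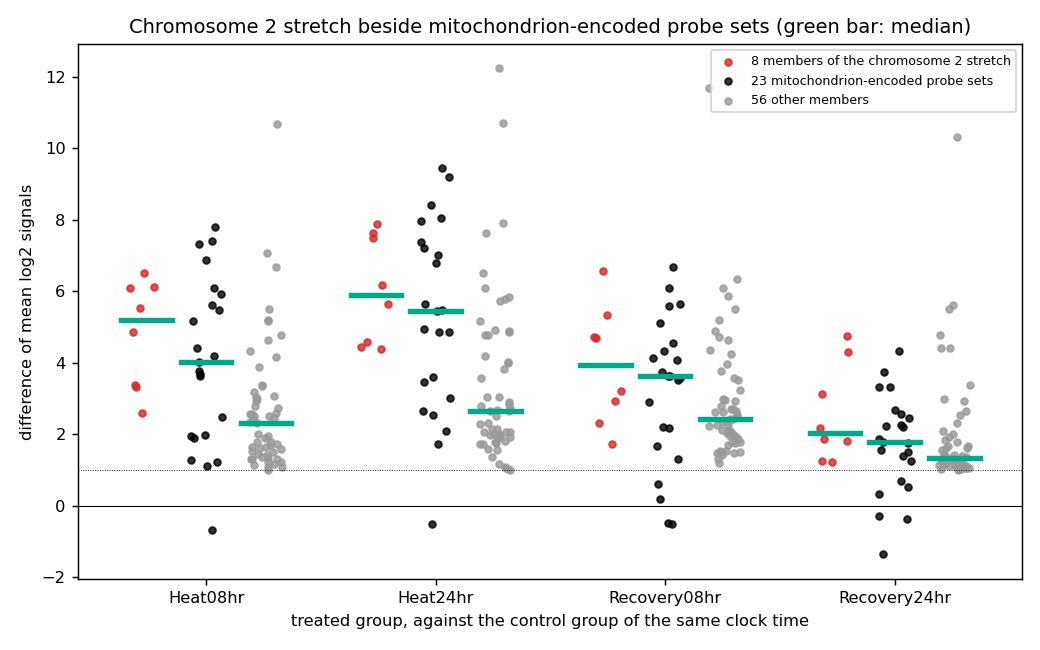
Points are probe sets, plotted by the difference of mean log2 signals from the control in each treated group, and green bars are medians. The 8 members of the chromosome 2 stretch (red) and the 23 mitochondrion-encoded probe sets (black) have medians of 5.91 and 5.45 at Heat24hr and 2.03 and 1.78 at Recovery24hr. The other 56 members (grey) stand at 2.65 and 1.32. The red points were chosen for large differences and the black were not, and all 26 probe sets of the stretch (not plotted as a set) had medians of 3.93 and 1.10.

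A group of 5 members acts in protein folding and turnover. In 4 of them the largest difference was at Heat24hr, compared with 35 of the 64 members and 1143 of 4582 eligible probe sets. AT1G01940 encodes a cyclophilin, an enzyme that turns proline bonds in folding proteins. Its signals were 12683, 13198 and 15058 at Heat24hr, and at Recovery24hr they were 1088, 777 and 699, still above the 303 to 468 (median 371) of the controls. It was 16.2-fold lower at Recovery24hr than at Heat24hr, whereas AT4G16660, an Hsp70-family chaperone, was 2.61-fold lower. AT4G16660 read 5645, 5340.1 and 5207 at Heat08hr and 2044, 1502 and 1490.4 at Recovery08hr, with controls of 513 to 805 (median 567). In the morning it read 4240.3, 3807 and 3769.6 in heat and 2204, 1623 and 960.2 in recovery. Over control it was 9.12-fold at Heat08hr, 2.81-fold at Recovery08hr and 3.17-fold at Recovery24hr.

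AT1G11660, also of the Hsp70 family, had folds of 2.46, 3.37, 2.30 and 2.31, highest at Heat24hr and close to each other in the other 3 groups. AT5G18340, of the U-box ubiquitin ligases that mark proteins for breakdown, had 1073, 1276 and 1110.4 at Heat24hr and 44.6, 30.0 and 19.3 at Recovery24hr, against 2.72 to 33.0 (median 12.9). Of its Recovery24hr arrays 2 were inside the control range. AT3G59080, an aspartyl protease, read 219, 215 and 168 at Recovery24hr with controls of 49.0 to 114 (median 99.3).

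The function lists held other genes of folding and breakdown. Of 28 cytosolic chaperones listed, 8 had a named probe set and none was a member. At least 2-fold above control were 5 of the 8 at Heat08hr, 7 at Heat24hr, 3 at Recovery08hr and none at Recovery24hr, where 3 were at least 2-fold below. Among eligible probe sets 13.2%, 20.8%, 18.9% and 4.95% were at least 2-fold above control in these groups, which is the share to set beside each list here. The listed probe sets were not held to the limits on level and control difference, and the share at least 2-fold below is not given here. *Fes1A*, a nucleotide exchange factor of Hsp70, had log2 differences of 4.38 at Heat24hr and 0.39 at Recovery24hr. All 6 named small heat shock proteins were at least 2-fold above control in each of the 4 groups, and the rule had set all 6 aside. Of 3 named genes of folding in the endoplasmic reticulum, 3, 2, 0 and 2 passed 2-fold in the 4 groups. Of 12 autophagy genes, which serve bulk breakdown of cell contents, 5, 5, 4 and 1 did. Over all 16 function lists, 58 of 318 entries had a named probe set, and 9 of these met 2-fold in all 4 groups, each an entry of a gene set aside by the rule. None of the 64 members was on a list.

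A group of 11 members has roles in making ribosomes or in handling RNA, and 7 of them had their largest difference at Recovery08hr (5 after median centring). This was so for 22 of the 64 members (18 after median centring) and for 1435 of 4582 eligible probe sets (1077 after median centring). AT2G40360 is the counterpart of mammalian BOP1, which serves the large ribosomal subunit. It had 6177, 6178 and 6149.6 at Heat08hr and 5674, 5309.5 and 4934 at Recovery08hr, with controls of 1449 to 1659 (median 1532). At Recovery24hr it read 4086, 3905 and 3096, and the highest of 9 control arrays was 2149. *NRPC1* (AT5G60040) encodes the largest subunit of RNA polymerase III, which makes transfer RNA and small ribosomal RNA. Its arrays read 317, 292 and 225 at Heat08hr and 1111, 932 and 792 at Recovery08hr, and controls 109 to 138 (median 122). Every early recovery array was above every early heat array, a 3.40-fold gap between the means.

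Several counterparts of yeast ribosome assembly factors had modest differences of the same order. AT3G10530 (UTP7 in yeast), AT4G04940 (UTP21) and AT4G28450 (SOF1) are WD40 proteins that process the small subunit precursor. Their log2 differences were 2.27, 2.43 and 2.38 at Recovery08hr and 1.41, 1.39 and 1.04 at Recovery24hr. AT3G12860, similar to NOP56 of the particles that methylate ribosomal RNA, had 2.96 and 1.03. AT4G26600 belongs to the NOP2 type of RNA methyltransferases and had 2.55 and 1.11. All 5 genes were higher over control at Recovery08hr than at Recovery24hr, as were 60 of the 64 members and 55.1% of the eligible probe sets.

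The DEAD-box RNA helicases AT1G51380 and AT5G54910, enzymes that unwind RNA, were members. AT1G51380 read 923, 881 and 1060.4 at Heat24hr and 363, 288 and 187 at Recovery24hr, against 35.5 to 95.2 (median 70.8). It had the largest late difference of the 11 (2.0 ± 0.30), and AT5G54910 had 1.09. AT1G66510, of the AAR2 family that assembles the splicing particle U5 in yeast, followed a heat profile instead, with log2 differences of 3.34, 4.03, 1.90 and 1.06. AT3G19440, a pseudouridine synthase that modifies RNA bases, had the smallest range of the group, from 1.0 to 1.48.

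Among the remaining genes, AT2G21820 was higher in recovery than in heat on every array of the 8 h harvest. It read 218, 269.8 and 424 at Heat08hr and 1130.4, 1539.7 and 578 at Recovery08hr, against 28.2 to 69.5 (median 51.2). At the later harvest it read 253, 319 and 282 at Heat24hr and 455, 284 and 287 at Recovery24hr. That log2 difference was 0.24 ± 0.24 (SE), and it was -0.07 after quantile normalization and -0.24 after median centring. AT5G60730, of the GET3 family of ATPases that insert tail-anchored membrane proteins, had its highest mean differences in recovery, with 1.31, 1.01, 2.02 and 1.60. Recovery minus heat was 0.71 ± 0.35 (SE) for the 08hr groups and 0.59 ± 0.37 (SE) for the 24hr groups. Heat and recovery arrays overlapped in both. AT3G24100, a small protein of the SERF type, was bright throughout, with 3988, 3548 and 4083 at Heat24hr and 1698, 1473 and 1292 at Recovery24hr, against 399 to 573 (median 455).

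AT3G07150, AT1G44414 and AT1G59660 had their largest difference at Heat24hr. AT3G07150 and AT1G44414 have no role given here, and AT1G59660 encodes a nucleoporin of the Nup98 type, a protein of the nuclear pore. AT1G59660 read 90.9, 129 and 93.6 at Heat08hr, 761, 850.2 and 766 at Heat24hr and 367, 372 and 270.5 at Recovery08hr. At Recovery24hr it was at 72.2, 47.1 and 11.5, with replicate 3 inside the control range of 6.30 to 42.8 (median 10.7). AT3G07150 read 1187, 1305 and 999.5 at Heat24hr and 109, 83.8 and 101 at Recovery24hr, and AT1G44414 1042, 1102 and 1054 and 135, 82.9 and 70.6. Their late recovery signals were near or under 100, on a scale whose control arrays read 19.2 to 73.9 (median 41.1) and 13.8 to 83.8 (median 42.3). *TET2* (AT2G19580), a tetraspanin of the plasma membrane, had its largest difference at Heat08hr (2.33) and stood at 1.15 at Recovery24hr, and AT5G62730, of the NPF family of nitrate and peptide transporters, stood at 4.0 at Heat24hr and 1.91 at Recovery24hr.

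A direct comparison of recovery with heat divided the members by harvest. At Recovery24hr, 36 members were at least 2-fold lower than at Heat24hr and 1 (*JRG21*) at least 2-fold higher, while 16.7% and 21.2% of the eligible probe sets were. At Recovery08hr, 13 members were at least 2-fold lower and 15 higher than at Heat08hr, compared with 15.6% and 19.8%. The median over members was -1.24 for the late pair and 0.13 for the early pair. After quantile normalization or median centring of the arrays, no member was 2-fold higher at Recovery24hr, and after median centring 50 were at least 2-fold lower, as were 30.3% of the eligible probe sets. The counts rest on the group means that chose the members and were not tested. The most negative differences in the late pair were those of AT1G35050 (-8.61 ± 0.29), AT5G18340 (-5.28), AT1G59660 (-4.54), AT2G07678 (-4.36), AT1G01940 (-4.02) and AT2G07741 (-4.0). In the early pair AT5G18340 had the lowest (-3.06), and *JRG21* (3.78), AT2G27080 (2.67), *UGT73C1* (2.49) and AT2G21640 (2.06) had the highest. AT1G59660 was higher in recovery in the early pair (1.69) and lower in the late one.

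**Figure D5:**
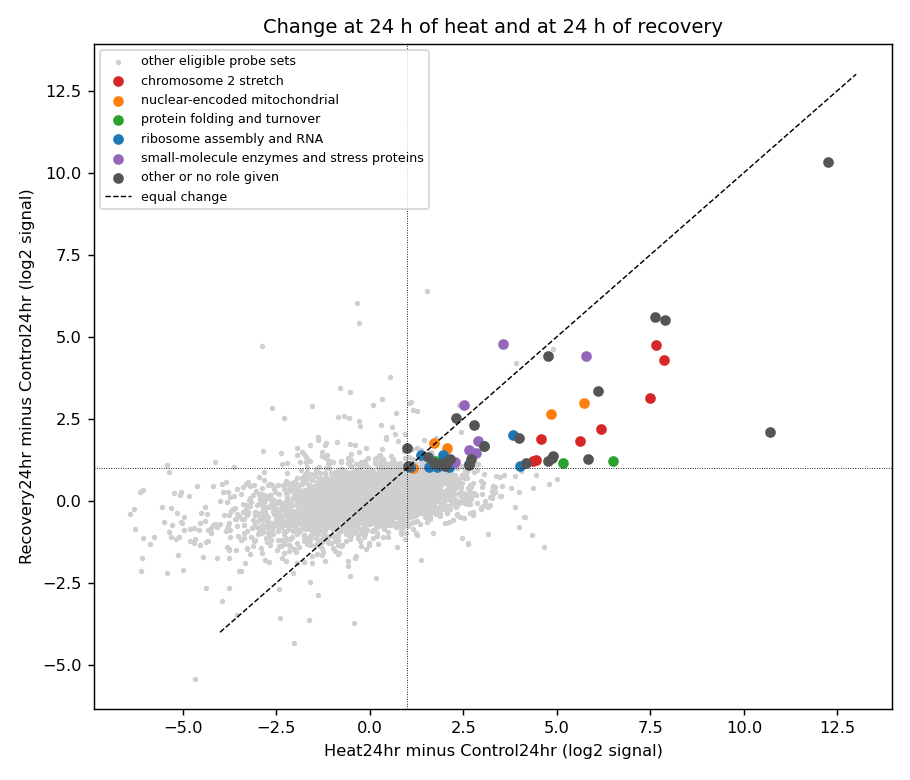
Each point is an eligible probe set, with its log2 difference from Control24hr at Heat24hr on the horizontal axis and at Recovery24hr on the vertical axis; members are coloured by role, the dashed line marks equal change and dotted lines 2-fold. Of the 64 members 8 lie above the dashed line (3 after quantile normalization and 2 after median centring), and AT1G35050 lies farthest below it, at 10.70 and 2.09.

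Unheated plants of different ages gave a comparison that the rule did not use. By limma with Benjamini-Hochberg adjustment over all 22746 probe sets, no member differed between ages at an adjusted p under 0.05 in any of 4 comparisons of 3 arrays with 3. Over all probe sets, 0.0% were called between 19 and 18 days at Control08hr and 0.0% at Control24hr, and 0.022% (5 probe sets) at Control24hr both for 20 against 18 and for 20 against 19 days. With so few calls among all probe sets, 64 members could hardly have held one, and nothing is read from the lack of called members. At an unadjusted p under 0.05 the members numbered 1, 1, 1 and 3 in these comparisons, or 1.56%, 1.56%, 1.56% and 4.69%, and all probe sets 4.64%, 4.86%, 4.47% and 4.71%. The median absolute log2 difference of members between ages was 0.15, 0.20, 0.18 and 0.26, larger than the 0.08, 0.10, 0.08 and 0.09 of eligible probe sets. Many members were dim in unheated plants. A control mean signal under 100 at both clock times was found in 29 of 64 members (45.3%) and in 115 of 4582 eligible probe sets (2.51%), and the part of the dim signals in this spread was not tested. The largest age difference was that of *JRG21* at Control24hr, which was -2.74 ± 1.64 (SE) in log2 between 19 and 18 days (adjusted p = 0.99 by limma), and it rests on the 1 high array of 18 days.

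The limit on late recovery alone kept out more probe sets than any other limit alone, counted at any distance from it. On that limit alone, 195 probe sets that met all others stayed outside, compared with 35 for Heat08hr, 5 for Heat24hr, 4 for Recovery08hr, 20 for the level and 32 for the control difference. The last members inside at Recovery24hr were AT2G40360 (1.03), AT3G12860 (1.03) and AT5G02050 (1.0), and the first outside were AT1G06720 (0.99), AT2G18220 (0.98) and AT1G14300 (0.97). At Heat08hr AT3G19440 (1.0), AT2G19385 (1.07) and AT1G15870 (1.08) were inside, and *XTH18*, a cell wall enzyme (0.91), AT2G44510 (0.87) and AT5G42060 (0.73) outside. At Heat24hr AT5G60730 (1.01) was the last inside and AT3G06530 (0.98) the first outside. The gap was wider at Recovery08hr, from AT1G11660 (1.2) to AT4G18280 (0.67). For the level, AT5G09840 (8.15), AT4G21170 (8.18) and AT3G42860 (8.19) were inside and AT2G07713 (7.97) outside. The zinc finger gene *STZ* missed the limit on the control difference (-0.55), which AT1G10260 (0.45) just met.

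Some features outside the expression values were also counted. The members lay on chromosomes 1 to 5 in numbers of 14, 16, 12, 9 and 13, where eligible probe sets numbered 1189, 659, 958, 666 and 1110, and 8 of the 16 on chromosome 2 belong to the stretch described above. Probe sets of the s_at kind made up 9 of the 64 (14.1%), compared with 19 of the eligible (0.415%), and they are the 6 of the stretch with AT1G48720, AT1G10260 and AT1G35050. RefSeq lists 62 of the 64 loci as protein coding and 2 as pseudogenes. Outside the stretch no 2 members were neighbours, and the closest pair, AT1G15870 and AT1G16040, had 20 genes between them.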

How the data were processed

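The deposited table holds signal intensities of 22746 probe sets on 27 ATH1 arrays, which the authors made by MAS5 and handled in GeneSpring version 12; no background step was added here. The lowest value is 1, and 3685 values lie at it. MAS5 puts the arrays on a common level, but the median signal was 120 to 134 on heat arrays and 160 to 176 on the others, so a log2 difference depends on the scaling chosen. Groups, ages and replicate numbers come from the labels. Whether replicates came from separate cultures beyond being biological replicates is not given in the sources used here. Depth has no meaning for arrays, and the number of arrays limits the precision.

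Log2 signals were averaged per group, controls of 1 clock time over all ages. Genes were named from the platform annotation (14016 probe sets listed, 13513 with 1 gene, 503 with several) and RefSeq (TAIR10.1) for locus, kind and order. The members and gene lists were chosen with earlier results of these data known. Standard errors and the age comparisons come from limma 3.58.1 in R 4.3.3 (lmFit and eBayes on log2 signals, only the 2 groups compared in a fit), with Benjamini-Hochberg adjustment over all probe sets. The test was tried on simulated arrays. Tables and plots used Python 3.11.15, pandas 2.3.3 and matplotlib 3.10.9.

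Genes named by rule were the 12 largest differences and 8 largest signals at Recovery24hr, the 6 lowest and 6 highest recovery-minus-heat differences at each clock time, those next to a limit, the chromosome 2 stretch and any called by age (42 members). Other members were named after their values were seen. The lists were 16 of gene functions and 7 of cell type markers; splicing factors and markers of epidermis, phloem, flower and seed had no named probe set. Alternatives were quantile normalization, median centring, 16 added before log2, a highest group mean of at least 9, age-matched controls, group medians, each replicate left out and, for age, bright probe sets, a replicate block and all arrays in 1 fit. Promoter sequences were not analysed here.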

Additional observations from a re-analysis of the deposited data

Results flagged for a closer look

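Control arrays that stood apart from the rest of their group were looked for in the 42 named members, in 84 sets of 6 or 9 arrays by Dixon's criterion on log2 signals, and 13 arrays did. Chance alone marks about 1 set in 20 where log2 signals are normally spread, which does not hold for arrays at the floor. AT1G48720 read 1.11 on 1 Control08hr array (19 days) and 6.82 on 1 Control24hr array (19 days), with all others at 1. With all others tied at the floor, any single higher reading is marked. *JRG21* (AT3G55970) read 293 on 1 Control24hr array of 18 days, with 2.04 to 22.5 on the others, and this array alone reached its recovery level.

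In the chromosome 2 stretch, AT2G07732 read 14.4 (others 1.34 to 4.12) and AT2G07674 13.1 (others 38.0 to 75.5) on Control24hr arrays of 19 days, and AT2G07777 read 19.5 (others 50.3 to 85.6) on a Control08hr array of 18 days. AT4G21580 read 738 on a Control24hr array of 18 days (others 541 to 615). AT1G68300 read 1305 on a Control08hr array of 19 days (others 1071 to 1147) and 741 on a Control24hr array of 19 days (others 894 to 927). AT5G09840 read 30.5 (others 65.6 to 129) and AT2G40360 1269 (others 1654 to 2149) on replicate 3 of Control24hr at 18 days. AT3G07150 read 12.1 (others 32.6 to 55.6) and AT1G11660 767 (others 843 to 892) on Control08hr arrays of 19 days. Apart from *JRG21*, none of these arrays reached the level of any treated array of its clock time.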

How the results depend on the processing

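No difference of a named gene from the control turned its sign under any alternative. Among the recovery-minus-heat differences, 9 members turned sign in the early pair and 11 in the late pair under at least 1 alternative, all with a difference on all arrays within 0.34 of 0 in the early pair and within 0.47 in the late pair. In the late pair, AT1G15870 (otherwise 0.05) became -0.34 after quantile normalization, -0.43 after centring, -0.035 without Heat24hr replicate 1 and -0.28 to 0.42 with 1 replicate left out. *BGLU25* (AT3G03640, main 0.41) became -0.073 after centring and -0.077 (without Recovery24hr replicate 1) to 1.03 with 1 replicate left out. AT2G27080 (otherwise -0.36) became 0.51 with group medians and -0.91 to 0.65 (without Recovery24hr replicate 3) with 1 replicate left out, and AT5G02050 (otherwise -0.15) 0.023 and -0.30 to 0.092. Of the 64 members, 43 (without Recovery24hr replicate 1) to 64 met the limits with 1 replicate left out, and 58 after quantile normalization, 57 after median centring, 48 with 16 added, 55 at a highest mean of at least 9, 52 with age-matched controls and 48 with group medians. The median at Heat08hr was 2.57 after quantile normalization, 2.88 after centring, 2.30 with 16 added, 2.60 at the higher level limit, 2.41 with group medians, 2.32 without the chromosome 2 stretch (chosen after seeing the data) and 2.38 to 2.56 with 1 replicate left out. That at Heat24hr was 3.23 after centring, 2.67 with 16 added, 3.05 at the higher level limit, 2.89 with age-matched controls, 2.65 without the stretch and 2.77 to 2.87 with 1 replicate left out. The single member 2-fold higher at Recovery24hr than at Heat24hr (*JRG21*) became 0 after quantile normalization, centring or the higher level limit, 0 without Heat24hr replicate 3 and 2 without Recovery24hr replicate 3.

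Same-numbered control arrays of different ages had deviations that correlated by 5.4e-05 to 0.16, and by more than 0.1 in 2 of 12 pairs. By that limit the numbers were not taken as pairing, and the standard errors given are unpaired. However, 11 of 12 arrays correlated best with their own number. A factor shared by arrays of the same number, and its part in the low values of replicate 3 in recovery, was not tested. With the replicate block, 0 members and 0 of all probe sets differed with age in any comparison. The 5 and 5 probe sets called at 20 days against 18 and 19 days became 0 and 0 with the block, with 16 added, with bright probe sets alone and with all arrays in 1 fit, 2 after quantile normalization for 20 against 19 days, and 0 to 1 with 1 replicate left out. Between 19 and 18 days the count of 0 became 3 at Control08hr with bright probe sets and 0 to 2 with 1 replicate left out, and at Control24hr 2 after quantile normalization and 1 in 1 fit. Members called by age stayed at 0 under every alternative. The causes were not tested.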
